A study of Mus musculus with 10 samples.

Results

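The peaks described here are sites where an m6A map of Mettl3 knockout mouse embryonic stem cells had a peak, the map of wild-type cells had none, and the peak sat at the edge of a gene. A knockout peak was a member if it shared no base pair with any wild-type peak and its midpoint lay inside a protein-coding or lncRNA gene span of the mm10 assembly, at most 200 bp from either end of the span. Where spans overlapped, a protein-coding gene took precedence and then the shortest span. This rule gave 1561 peaks in 1552 genes, out of 6764 peaks in the knockout list and 50124 in the 3 lists of the series. The members were thus chosen by the positions of the knockout and wild-type peaks, so their absence from the wild-type list and their distance from a gene end are given as a description, with no test. Over the whole knockout list, 5319 peaks (78.6%) shared no base pair with the wild-type list, and of the 5091 of these that lay in a gene span, 30.7% met the distance rule.

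The study used male mouse embryonic stem cells grown without feeder cells in serum and LIF. The m6A samples were 2 precipitates and 2 inputs from Mettl3-KO cells, against the same from Mettl3-WT cells, all of polyadenylated RNA. A further precipitate (RIP) captured total RNA bound to YTHDC1 in cells of a Halo-Ythdc1 knockin line, with 1 input, and those cells carried no label of a Mettl3 deletion. The authors' peak lists held 6764 knockout m6A peaks, 12368 wild-type m6A peaks and 30992 YTHDC1 RIP peaks, as positions only, with no height, strand, read count or value per replicate. Replicate error could thus not be estimated, the depth is unknown, and no test between the genotypes was possible. Ranges given in brackets after a share are 95% binomial intervals by the Clopper-Pearson method. They cover the error of counting alone, and peaks are not replicates of a condition. The label of 1 knockout precipitate names the wild-type list, so it cannot be told from the labels which samples fed which list. A further label calls the cells of the knockout samples wild type; their titles and source names say Mettl3-KO and were followed. Mettl3 itself held 0 peaks in both m6A lists, so the lists cannot check the genotype. Of 8 embryonic stem cell markers, 7 held an m6A peak in at least 1 list, against 2 of 6 trophoblast, 0 of 5 primitive endoderm, 2 of 5 fibroblast and 3 of 4 neuroectoderm markers. A peak is no measure of expression.

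N6-methyladenosine (m6A) is written within messenger RNA by a complex whose catalytic subunit is METTL3, mostly in long internal exons and near stop codons. The first transcribed base next to the cap can carry a related mark, N6,2′-O-dimethyladenosine (m6Am), when that base is an adenosine. PCIF1 writes m6Am independently of METTL3, and antibodies raised against m6A also recognise it. YTHDC1 is a nuclear reader that binds m6A through its YTH domain. The lists do not separate m6A from m6Am.

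Nearly all of these peaks lay at the starts of genes and few at the ends of transcription. The strand of the gene was at hand for 1286 of the 1561 peaks, and 1266 of them (98.4%, 97.6 to 99.0%) lay closer to the start and 20 to the end. The other 275 lay in genes with no strand in the table used. Over all 1992 m6A peaks of both lists near a gene end and of known strand, the start side held 92.2%. That total included the 1286 members themselves, so it is no separate background. To show what sequence the peaks covered, 10 annotated starts that lay inside a member peak are printed from RefSeq (GRCm38.p6, the coordinates of mm10), 5′ to 3′ on the strand of the gene, from 70 bases before the start. The capitals mark the first 30 transcribed bases, so the first capital is the base next to the cap. The first 4 belong to the widest such peaks and the others to the widest in 6 gene groups described below. They are Tapbp (chr17:33919408-33919507, plus strand), Gnl3 (chr14:31019102-31019201, minus strand), Slc35g1 (chr19:38395910-38396009, plus strand), Slc7a6os (chr8:106210904-106211003, minus strand), Cox6b2 (chr7:4753065-4753164, minus strand), Mrpl27 (chr11:94653721-94653820, plus strand), Srsf5 (chr12:80945429-80945528, plus strand), Psme3 (chr11:101316143-101316242, plus strand), Polr3f (chr2:144527675-144527774, plus strand) and Rpl31 (chr1:39367781-39367880, plus strand).
Tapbp: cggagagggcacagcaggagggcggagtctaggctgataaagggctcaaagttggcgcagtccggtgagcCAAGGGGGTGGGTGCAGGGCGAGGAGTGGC
Gnl3: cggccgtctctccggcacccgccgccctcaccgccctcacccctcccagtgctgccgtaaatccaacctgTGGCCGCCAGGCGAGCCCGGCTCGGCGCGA
Slc35g1: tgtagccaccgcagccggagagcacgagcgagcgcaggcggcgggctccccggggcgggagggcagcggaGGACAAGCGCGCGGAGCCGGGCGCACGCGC
Slc7a6os: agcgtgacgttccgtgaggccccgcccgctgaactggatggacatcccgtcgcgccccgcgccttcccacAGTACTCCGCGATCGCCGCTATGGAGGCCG
Cox6b2: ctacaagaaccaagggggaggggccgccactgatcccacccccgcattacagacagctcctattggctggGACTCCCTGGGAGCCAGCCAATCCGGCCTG
Mrpl27: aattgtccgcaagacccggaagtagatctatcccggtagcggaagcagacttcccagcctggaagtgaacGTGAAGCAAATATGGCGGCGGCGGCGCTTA
Srsf5: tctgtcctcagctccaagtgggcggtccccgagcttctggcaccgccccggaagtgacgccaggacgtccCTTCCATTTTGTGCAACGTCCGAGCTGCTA
Psme3: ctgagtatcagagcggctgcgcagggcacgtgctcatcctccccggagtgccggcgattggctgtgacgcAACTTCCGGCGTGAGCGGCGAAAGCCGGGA
Polr3f: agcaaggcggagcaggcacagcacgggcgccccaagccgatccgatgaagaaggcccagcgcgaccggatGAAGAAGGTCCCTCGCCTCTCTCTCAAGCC
Rpl31: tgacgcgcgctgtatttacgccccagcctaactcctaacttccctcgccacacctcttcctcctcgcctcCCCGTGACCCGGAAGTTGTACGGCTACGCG
The first transcribed base was adenine in 2 of these 10 (Slc7a6os and Psme3), guanine in 4, cytosine in 3 and thymine in 1. Srsf5 had a cytosine followed by 4 pyrimidines, the form of a terminal oligopyrimidine start, while Rpl31 did not in its listed transcript.

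The peaks formed a narrow band just inside the start. Their midpoints lay 0 to 200 bp after the start of the span by rule, with a median of 105 bp and quartiles of 76 and 137 bp. Measured from the listed start nearest to the peak, the median midpoint was 90 bp into the gene, the upstream edge lay at -28 bp and the downstream edge at 204 bp. The peak covered that listed start in 924 of 1266 cases (73.0%, 70.4 to 75.4%). In 1245 of the 1266 a listed start lay within 200 bp of the midpoint. The rule placed the midpoint within 200 bp of the start of the span, so these counts largely follow from it and are a description. In 48 the midpoint lay upstream of the nearest listed start. The typical member thus began just before the annotated first base and ran through the first stretch of the transcript.

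The 200 bp limit did not fall at a gap in the distances, but the counts had already dropped there. Counting knockout-only peaks by the distance of the midpoint to the nearer end, there were 183 within 50 bp, 545 from 51 to 100 bp, 568 from 101 to 150 bp and 265 from 151 to 200 bp. Just outside the limit there were 148 from 201 to 250 bp and 100 from 251 to 300 bp. Ankrd40, at 200 bp, was among the last inside. The only knockout peak of the homeobox gene Nanog lay outside the limit, at 237 bp. Nanog also held 1 wild-type peak, and whether its knockout peak belongs to these knockout-only counts is not given here. On the end side the counts ran the other way, with 2, 6, 6 and 6 peaks in the 4 bins inside the limit, then 6 and 10.

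**Figure D1:**
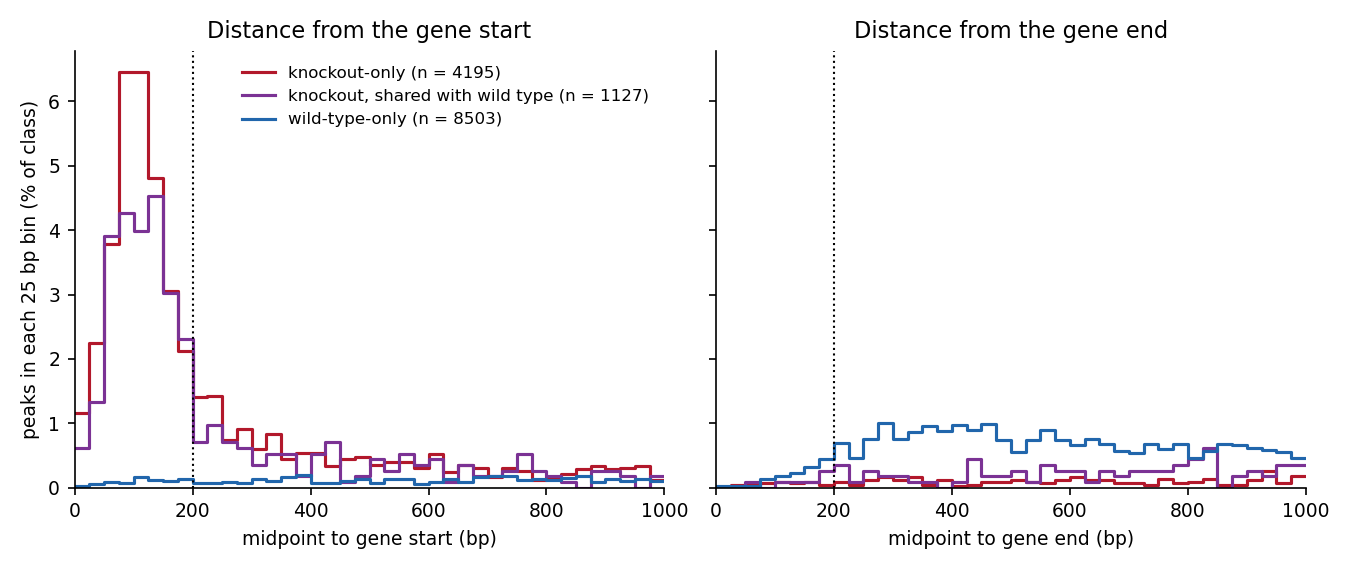
Share of the peaks of each class (y axis, % of all peaks of the class in genes of known strand) by the distance of the midpoint from the gene start (left, x axis, bp) and from the gene end (right), in bins of 25 bp. The dotted line is the 200 bp limit. Knockout-only peaks (red) and knockout peaks shared with wild type (purple) are most frequent between 75 and 150 bp after the start, while wild-type-only peaks (blue) stay low there and are more frequent than knockout-only peaks from 75 bp before the end inward.

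Set beside the other classes, the lean to the start was shared by all knockout peaks near gene ends and not by wild-type-only peaks. Of knockout peaks near a gene end that did overlap a wild-type peak, 270 of 277 (97.5%, 94.9 to 99.0%) were at the start. Of wild-type-only peaks near a gene end, 67 of 190 (35.3%, 28.5 to 42.5%) were. Of inner knockout-only peaks, those more than 200 bp from both ends, 1683 of 2909 (57.9%, 56.0 to 59.7%) were closer to the start, against 1548 of 8313 (18.6%, 17.8 to 19.5%) of inner wild-type-only peaks. Among the inner knockout-only peaks, 389 (13.4%, 12.2 to 14.7%) had their midpoint at a listed start of the gene, from 100 bp before to 200 bp after it, against 37 (0.445%, 0.314 to 0.613%) of the inner wild-type-only peaks. The rule thus missed knockout-only peaks that lay at listed starts of their genes. Any listed start counted, so starts deep in the gene were not separated from those just inside the span.

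The members were narrow and nearly uniform in width. Their median was 250 bp with quartiles of 200 and 300 bp, the same as over the whole knockout list, while all wild-type peaks had a median of 400 bp. Near gene ends the classes did not differ in median width. Wild-type-only peaks there also had a median of 250 bp (quartiles 200 and 350 bp), as did shared knockout peaks (200 and 300 bp). All widths were multiples of 50 bp, the grid of the m6A lists. There were 74 peaks of 100 bp, 210 of 150 bp, 431 of 200 bp, 434 of 250 bp, 251 of 300 bp, 103 of 350 bp and 39 of 400 bp, and 19 were wider. The lists hold no height, so width served for ranking, and it does not measure the amount of methylation.

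Among members of known strand, the widest lay at the start of Tapbp, which encodes tapasin, a chaperone of the peptide-loading complex of MHC class I (750 bp, chr17:33919301-33920050). It ran from 177 bp before the start to 572 bp after it, and its gene had 1 wild-type peak, a 250 bp peak 6248 bp from the gene start. The nearest wild-type peak, not assigned to Tapbp, lay 300 bp away, and the midpoint of the member lay in 2 gene spans. Gnl3 encodes nucleostemin, a nucleolar GTPase of stem cells. Its 650 bp peak (chr14:31018701-31019350) reached from -219 to 430 bp, with no wild-type peak in the gene. Slc35g1, a solute carrier gene, followed with 600 bp (chr19:38395801-38396400), and a 213 bp RIP peak lay within it. The 4 peaks of 500 bp among the named genes lay at Slc7a6os, at Ppp2ca, which encodes the catalytic subunit of protein phosphatase 2A, at the histone H2A gene H2ac10 and at Ankrd40. The last 3 of these overlapped a RIP peak and Slc7a6os did not. Peaks of 450 bp lay at Prcc, at Psenen, a subunit of gamma-secretase, and at Kdelr1, a receptor that returns proteins to the endoplasmic reticulum, none with a RIP peak. The Psenen midpoint also lay in 2 gene spans.

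**Figure D2:**
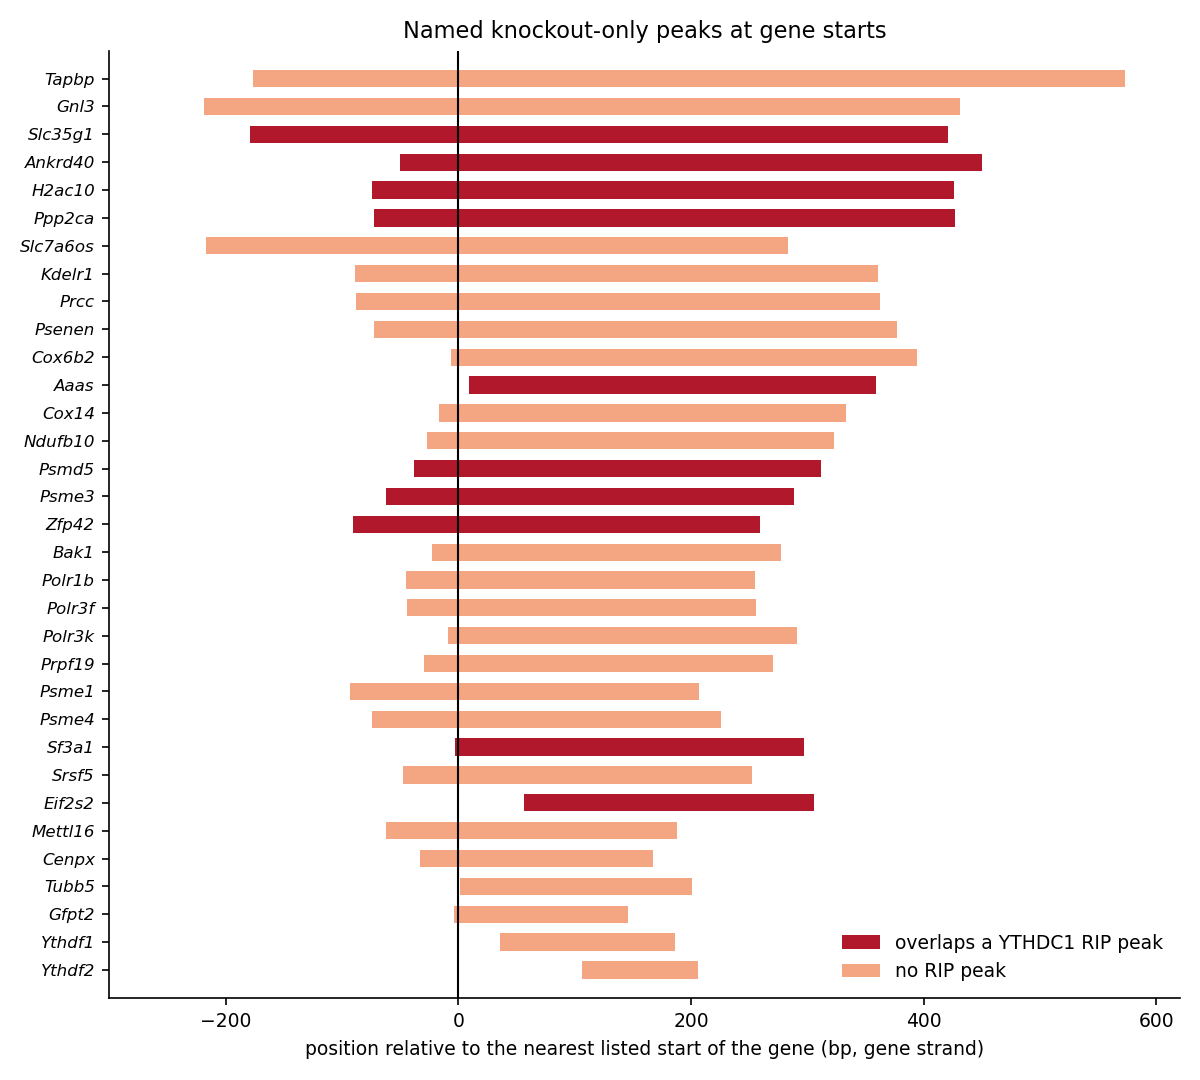
Extent of 33 named knockout-only peaks at gene starts, each drawn as a bar relative to the nearest listed start of its gene (x axis, bp, in the direction of transcription), sorted by width. Dark bars overlap a YTHDC1 RIP peak and light bars do not. The widest, at Tapbp, runs from -177 to 572 bp, and that of Ythdf2, 100 bp wide, begins 106 bp after the start.

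The 20 peaks at true gene ends formed a small and mixed set. Their midpoints lay 39 to 194 bp before the end, with a median of 114 bp, and 12 of them crossed the end of the span. The widest were 400 bp each, in S100a11, a calcium-binding protein gene, and in Atpif1, which encodes an inhibitor of the mitochondrial ATP synthase. Tubb5, a beta-tubulin gene, and Anapc13, a subunit of the anaphase-promoting complex, had 350 bp each. Cenpx, Prr12 and Fbxl19 had 300 bp each. Gnas, the imprinted gene of the stimulatory G protein alpha subunit, and the potassium channel gene Kcnj12 had 250 bp each. A wild-type peak lay 250 bp from the Fbxl19 member and 300 bp from those of Tubb5 and Prr12. For the others named here the nearest lay 1750 to 80800 bp away. Of the 20, 1 (5.00%, 0.127 to 24.9%) overlapped a RIP peak. That one, in a gene with a provisional name, had its midpoint 112 bp after the listed start of Bex1, and without strand the peak cannot be assigned to one of these genes. It was the only end-side member with a listed start of any gene within 200 bp.

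Pou5f1, the pluripotency factor OCT4, was among the end-side genes. Its only m6A peak in either list was a knockout peak of 150 bp (chr17:35510651-35510800), 51 bp before the gene end, with no wild-type peak and no overlap with a RIP peak. Members lay at both ends of Bak1, Gfpt2, Cenpx, Tubb5, Aaas and Eif2s2. For Bak1 and Gfpt2 the midpoint of each member lay in 2 gene spans, so the gene was set by the rule for overlapping spans. Bak1, a pro-apoptotic pore protein gene, had a 300 bp peak at its start and a 200 bp peak at its end. Between them lay 2 knockout peaks that overlapped 2 wild-type peaks. Tubb5 had a 200 bp peak at its start and the 350 bp peak at its end, and its 2 wild-type peaks lay between these, 731 and 1556 bp from the end. In all, 9 genes had 2 members and none had more.

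By rule no member overlapped a wild-type peak, and few had one close by. The nearest wild-type peak touched the member in 3 cases, lay within 100 bp in 14, within 500 bp in 74 and within 1 kb in 102 of the 1561. The median gap was 19400 bp. Gaps from other gene starts were not set beside it, so it describes the members alone. The lists cannot show whether wild-type reads were also raised at these starts, since a peak that misses the caller's threshold leaves no entry, and this was not tested.

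Many of the same genes nevertheless carried a wild-type peak elsewhere. The gene also held a wild-type peak for 754 of the 1561 members (48.3%, 45.8 to 50.8%), against 58.3% (56.7 to 59.9%) of inner knockout-only peaks and 29.5% of all protein-coding genes. The 1004 wild-type peaks in the 625 genes with a start-side member and a wild-type peak lay at a median of 89.0% of the way from start to end of the span, with quartiles of 65.2 and 96.0%. In other genes the median position was 85.5% for 8615 wild-type peaks. A typical gene of this kind thus had its knockout peak at the start and its wild-type peak toward the end of the span. A further knockout-only peak inside the gene was present in 574 of the 1552 genes (37.0%, 34.6 to 39.4%). Over all protein-coding genes the share was 10.4%. Among genes with a shared knockout peak near an end it was 32.0% (27.1 to 37.2%), so it was not particular to the members.

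The YTHDC1 list was not used by the rule, and 386 of the 1561 members (24.7%, 22.6 to 26.9%) overlapped a RIP peak by at least 1 bp, against 22.0% of all knockout peaks and 13.5% of all wild-type peaks. Which side of the knockout background the share lay on depended on the distance limit, since the 728 peaks within 100 bp of a gene end had 19.2% (16.4 to 22.3%). At gene starts it was 317 of 1266 (22.7 to 27.5%). Knockout peaks shared with wild type near gene ends had 29.6% (24.8 to 34.7%), inner knockout-only peaks 21.2% (19.8 to 22.5%) and wild-type-only peaks near gene ends 15.3% (11.0 to 20.6%). Position within the gene moved with these shares. Inner peaks closer to the start overlapped a RIP peak in 26.0% (23.9 to 28.1%) of the knockout-only and in 20.7% (18.7 to 22.8%) of the wild-type-only class, and those closer to the end in 15.1% and 10.7%. At the 200 bp limit the members' share thus lay near the background of the knockout list and within the interval of inner knockout-only peaks of the start side.

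RIP peaks at the members had an ordinary width for the RIP list and lay mostly downstream of the start. None of those on the 386 members was 1 kb or longer, with a median width of 212 bp. Over all 30992 RIP peaks the median was 203 bp. Of the 747 inner knockout-only peaks with a RIP peak, 742 overlapped one under 1 kb. On the start side their upstream edge had a median of 29 bp after the listed start and their downstream edge 259 bp, and 88 of 317 covered the start itself. At Zfp42, which encodes the pluripotency marker REX1, the 350 bp member (chr8:43306751-43307100) ran from -91 to 258 bp and overlapped a RIP peak of 200 bp. The gene had 2 wild-type peaks, of 300 and 250 bp, with midpoints 1008 and 10583 bp from the start.

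The RIP list was itself dense just after gene starts. At 150 bp after the listed start a RIP peak covered 22.3% of the 1266 genes with a start-side member, against 15.8% of 3250 protein-coding genes with a wild-type peak and no knockout peak, and 5.48% of the 12989 other protein-coding genes. At 1000 bp after the start the 3 shares were 2.76%, 2.37% and 1.06%. Over the whole span, 75.3% (73.1 to 77.4%) of genes with a member overlapped a RIP peak, against 70.9% (69.5 to 72.3%) of genes with a wild-type peak and no knockout peak, and 42.5% of all protein-coding genes. Expression is not in the lists, and its part in these shares was not tested.

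**Figure D3:**
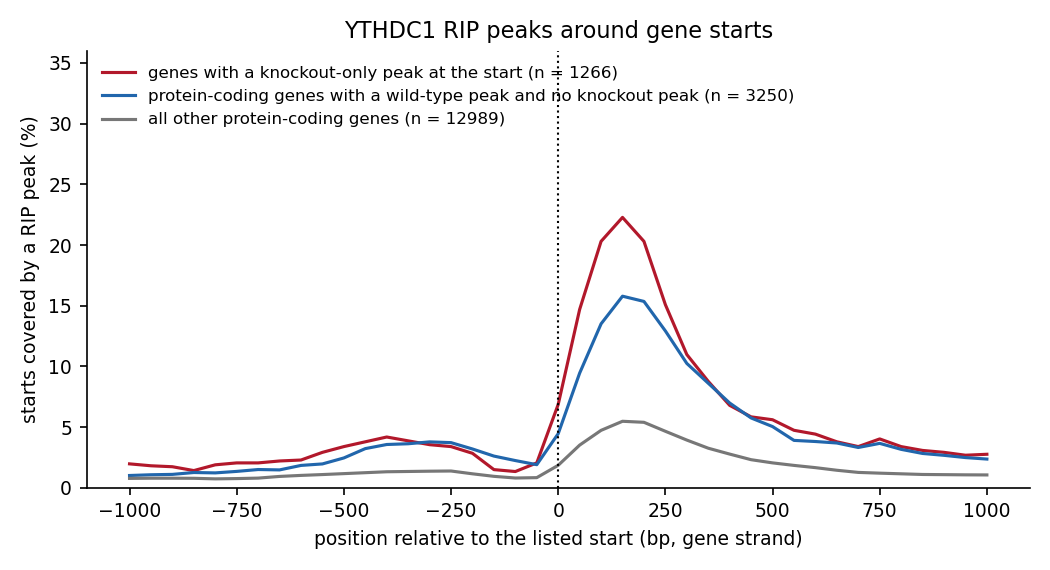
Share of gene starts covered by a YTHDC1 RIP peak (y axis, %) by position relative to the listed start nearest the start of the span (x axis, bp), read every 50 bp. Genes with a knockout-only peak at the start (red) reach 22.3% at 150 bp, protein-coding genes with a wild-type peak and no knockout peak (blue) 15.8% and protein-coding genes of neither group (grey) 5.48%.

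The genes with a member were drawn unevenly from the gene families listed. Of the 34614 genes used, 4.48% had a member, and of the 21887 protein-coding genes 7.01% had one, which is the share each list is read against. Of 17 lists, 7 had an interval above that share and 1 below. The 17 lists together held 1434 genes and 206 genes with a member, and 1346 genes with a member were in no list. The rule used the knockout list for these counts, so they describe the members and are not tests. Of all protein-coding genes 17.7% held any knockout peak. The lists hold no expression values, and the part of expression in the shares of the gene lists was not tested.

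Genes of the respiratory chain, the inner-membrane complexes that pass electrons to oxygen and make ATP, had the highest share at the 200 bp limit. Of 105 such genes, 38 (36.2%, 27.0 to 46.1%) had a member, 33 of them known to lie at the start, while 13 (12.4%) had a wild-type peak anywhere in the gene. They were spread over the complexes, with 18 of 49 genes named for NADH dehydrogenase (Nduf), 8 of 27 for cytochrome c oxidase and its assembly (Cox) and 6 of 17 for the ATP synthase (Atp5). Succinate dehydrogenase added 2 of 4, Sdhb and Sdhd, and complex III (Uqcr) 4 of 8, Uqcr11, Uqcrb, Uqcrh and Uqcrq, all 6 named after their values were seen. The rank depended on the limit. Within 100 bp mitochondrial ribosomal protein genes led with 25.6%, against 21.0% for the respiratory chain and 3.28% over all protein-coding genes. Within 500 bp splicing factors had 43.6% and RNA polymerase subunits 39.3%, against 37.1% for the respiratory chain and 8.92% over all. Ndufb10, a subunit of complex I, had a 350 bp peak at -27 to 322 bp and no wild-type peak. Cox14, an assembly factor, also had 350 bp, and Cox6b2, the testis form of a cytochrome c oxidase subunit, 400 bp. Of the 38 respiratory chain peaks 14 overlapped a RIP peak, but not those of Ndufb10, Cox14 and Cox6b2.

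Mitochondrial ribosomal protein genes had a similar share, with 25 of 78 (32.1%, 21.9 to 43.6%), made of 15 of 49 Mrpl and 10 of 29 Mrps genes. Unlike the respiratory chain, 38 of the 78 also had a wild-type peak. Mrpl27 had a 350 bp peak whose midpoint lay 15 bp before its listed start, where another gene span overlaps. Mrpl32 and Mrps22 had 300 bp each and Mrpl57 250 bp, none with a RIP peak. Over the 25 peaks of this list 2 overlapped a RIP peak. The midpoint of the Mrpl57 member, like that of Mrpl27, lay in 2 gene spans. Cytosolic ribosomal protein genes, by contrast, were at the background, with 6 of 91 (6.59%, 2.46 to 13.8%), and 6 had a wild-type peak. The widest of these members lay at Rpl31 and at Rpl7l1, a paralogue of Rpl7, 400 bp each, and at Rpl36a, 250 bp.

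Genes of the nuclear RNA machinery had shares above the background as well at the 200 bp limit. RNA polymerase subunits had 9 of 28 (32.1%, 15.9 to 52.4%), among them Polr1b, Polr3f and Polr3k with 300 bp each. None of the 9 peaks overlapped a RIP peak, against 24.7% of all members. Splicing factors and hnRNPs had 23 of 78 (29.5%, 19.7 to 40.9%). These included Sf3a1, a subunit of the U2 particle, Prpf19, a core of the spliceosome's activating complex, and the SR protein gene Srsf5, with 300 bp each. Of the 23 splicing peaks 7 overlapped a RIP peak, that of Sf3a1 among them. DEAD and DEAH box helicases, which unwind RNA, had 14 of 53 (26.4%, 15.3 to 40.3%), and 41 of the 53 had a wild-type peak. Ddx42, Dhx15 and Dhx36 had 350 bp each and Ddx51 300 bp, and Dhx36 alone of these 4 overlapped no RIP peak. Over the 14 helicase peaks 6 overlapped a RIP peak. Within 100 bp, 2 RNA polymerase genes (0.877 to 23.5%) and 3 helicase genes (1.18 to 15.7%) had a member, and both intervals held the share over all protein-coding genes at that limit.

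Proteasome genes had 13 of 51 (25.5%, 14.3 to 39.6%), against 9 with a wild-type peak. Psmd5, a chaperone of proteasome assembly, and Psme3, a proteasome activator, had 350 bp each and overlapped RIP peaks, and the activator genes Psme1 and Psme4 had 300 bp each and did not. Translation factors had 14 of 72 (19.4%, 11.1 to 30.5%), with 350 bp at Eif3g, 300 bp at Eif2b4 and 250 bp at Eif4g1, Eif4h and, at each of its ends, Eif2s2. Replication-dependent histone genes, whose messages mostly lack a poly(A) tail, had 9 of 67 (13.4%, 6.33 to 24.0%) against 1 with a wild-type peak. H2ac10 led these with 500 bp, and H2ac13, H2bc8 and H1f2 had 250 bp each. The interval of the histone list held the background, while those of the proteasome and translation factor lists lay above it.

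At the 200 bp limit zinc finger genes and chromatin regulators had the lowest shares. Of 403 Zfp genes 16 (3.97%, 2.29 to 6.37%) had a member, while 257 had a wild-type peak. Only this list had an interval below the background, and that of the chromatin regulators held it. Of 84 chromatin regulators 2 (2.38%, 0.290 to 8.34%) had one, Kmt5a, a histone H4 methyltransferase, and Kdm5c, a histone H3 demethylase, with 150 bp each, while 55 had a wild-type peak. The chromatin count was 9 (10.7%) within 500 bp, where zinc finger genes had 5.46% and cytosolic ribosomal protein genes 7.69%, and within 100 bp the m6A factors were lowest with 0 of 18. In between, with intervals that held the background, were small GTPases with 10 of 88 (11.4%, 5.59 to 19.9%; Rab35 and Arf3 with 350 bp each), the ubiquitin conjugation list with 11 of 97 (11.3%, 5.80 to 19.4%), and chaperones with 8 of 80 (10.0%, 4.42 to 18.8%; Hspa1b with 350 bp and Hspa1a with 300 bp). The ubiquitin conjugation list took genes named Ube2 or Usp, so it also holds ubiquitin-specific proteases, which remove ubiquitin. The snoRNA host list had 2 of 19 (Snhg15 and Snhg17, 200 bp each). Its interval also held the background, but that is the share over protein-coding genes, and both members are lncRNA genes. Over the 12727 lncRNA genes used there were 18 members. The order of the lists by members differed from their order by wild-type peaks, as the plot of gene lists shows.

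**Figure D4:**
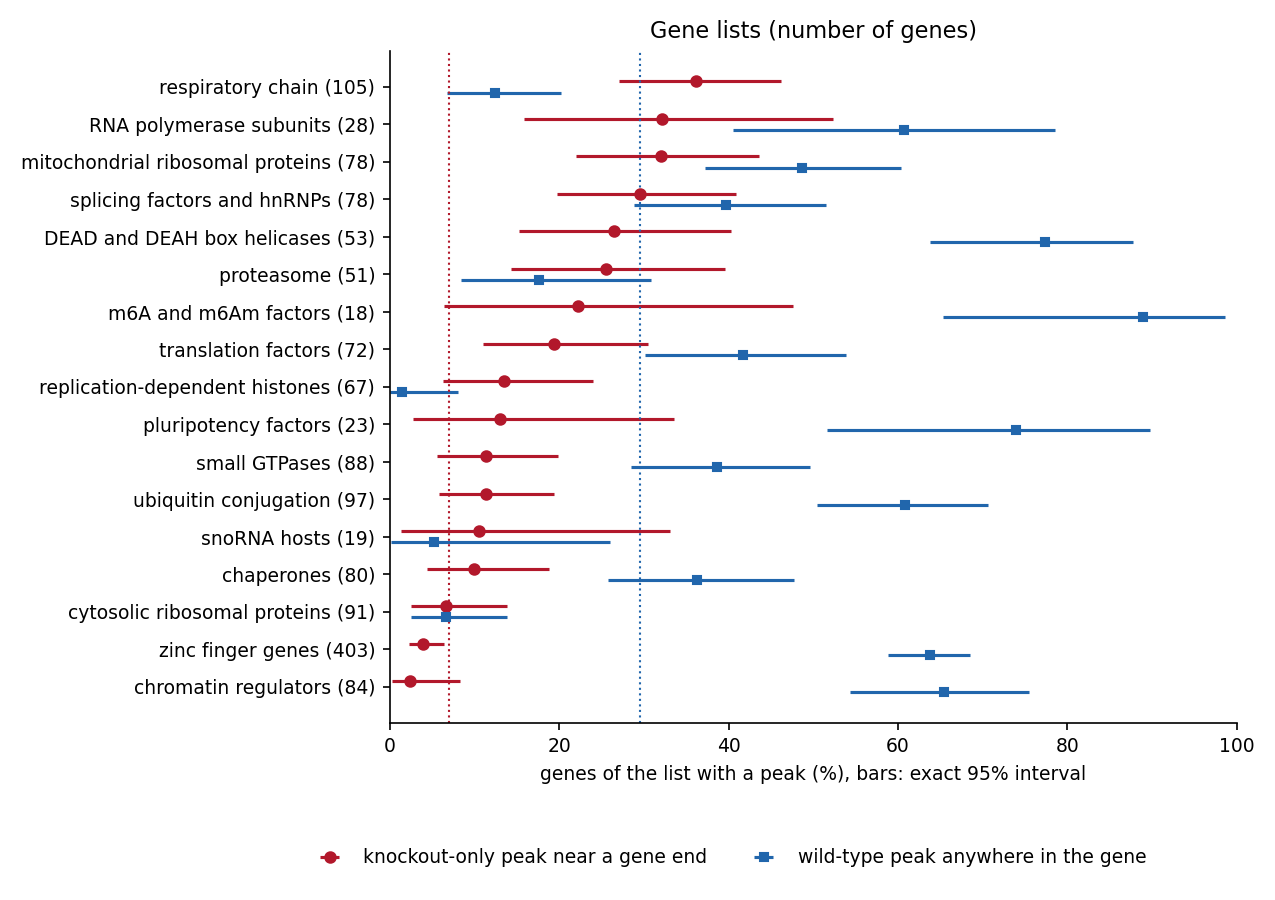
Share of the genes of each list (x axis, %) with a knockout-only peak near a gene end (red circles) and with a wild-type m6A peak anywhere in the gene (blue squares), with exact 95% intervals that cover counting error only. Lists run down the page by the red share, with the number of genes in brackets, and dotted lines give the shares over all protein-coding genes, 7.01% and 29.5%. Respiratory chain genes stand at 36.2% and 12.4%, and zinc finger genes at 3.97% and 63.8%.

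The lists of m6A factors and pluripotency factors were small, and their intervals held the background. Of 18 m6A and m6Am factors 4 (22.2%, 6.41 to 47.6%) had a member, and 16 had a wild-type peak. Mettl16, a separate m6A methyltransferase, had a 250 bp peak from -62 to 187 bp. Ythdf1 and Ythdf2, cytoplasmic m6A readers, had 150 and 100 bp, both beginning after the start. None of the 4 overlapped a RIP peak. Pcif1, the m6Am writer, had no knockout peak and 1 wild-type peak, and the knockout peaks of Ythdc1 all lay at least 421 bp from a gene end. Of 23 pluripotency factors 3 (13.0%, 2.78 to 33.6%) had a member, among them Pou5f1 and Zfp42, while 17 had a wild-type peak. Sox2 and Klf4 had a knockout peak near an end, at 181 and 124 bp, but it overlapped the wild-type list, as did that of the lncRNA Neat1 at 179 bp. Malat1 and Xist had 1 knockout peak each, 871 and 957 bp from an end, and Myc had no peak in either m6A list. Of the 1561 members, 18 lay in lncRNA genes.

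The first transcribed base is the one that m6Am needs to be adenine. It was adenine at 403 of the 1266 starts with a member (31.8%, 29.3 to 34.5%) and 33.7% (28.1 to 39.7%) at 270 starts with a shared peak, against 25.1% (23.7 to 26.7%) in 3250 protein-coding genes with a wild-type peak and no knockout peak. At the 924 member starts that lay inside the peak the share was 33.8% (30.7 to 36.9%). Over 17492 protein-coding genes, however, the share was 38.4%, so members had more adenine than the wild-type group and less than all genes. Guanine stood first in 46.2% of member starts, against 50.1% in the wild-type group and 38.5% of all, cytosine in 13.0%, against 15.3% and 13.7%, and thymine in 114 starts, against 9.42% and 9.35%. The dinucleotide CA across the start, the last upstream and the first transcribed base, was present in 21.3% of member starts, against 17.0% and 23.3%. Adenine in members stood at 12.3% at the base before the start and at 19.7% at the next base, so the rise at the first base was a feature of all 4 groups. For members and shared peaks the listed start nearest the peak was read, and for the other groups the one nearest the start of the span. Annotated starts can differ from those used in these cells, and start data were not used here.

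**Figure D5:**
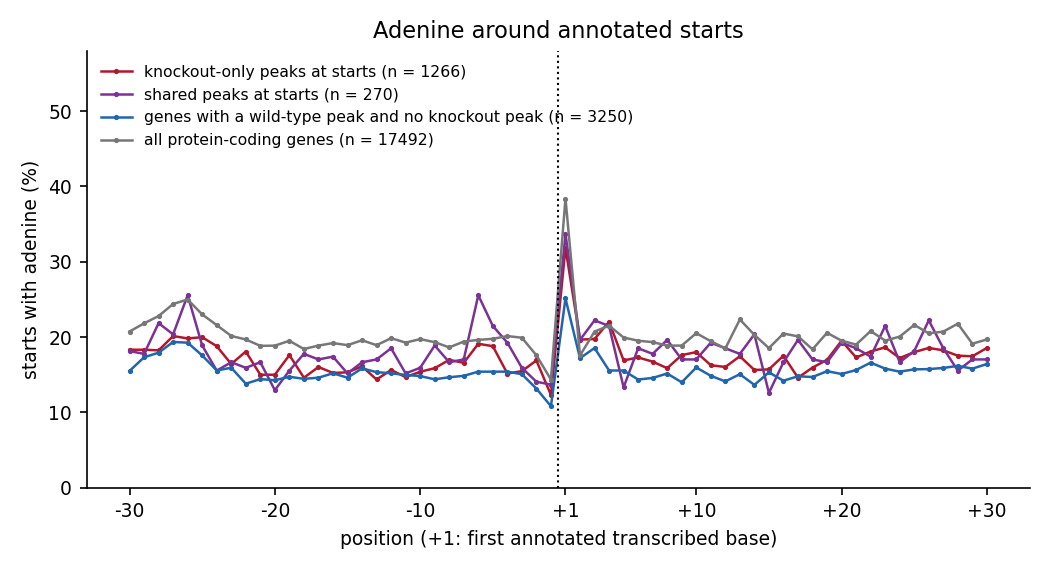
Share of starts with adenine (y axis, %) at each position from 30 bases before to 30 bases after the annotated start (x axis, the first transcribed base is +1). At +1 the share is 31.8% for knockout-only peaks (red), 33.7% for shared peaks (purple), 25.1% for genes with a wild-type peak and no knockout peak (blue) and 38.4% for all protein-coding genes (grey).

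Other features of the printed kind of window were searched on the strand of the gene alone. GGAC, the core of the m6A consensus, was found in the first 50 transcribed bases of 20.9% (18.6 to 23.2%) of member starts, against 19.3% of starts in the wild-type group and 20.0% of all, and the longer GGACT, which contains it, in 5.85%, against 4.80% and 5.89%. TATAAA from 40 to 20 bases upstream was found in 0.869% of member starts, 0.677% in the wild-type group and 2.76% of all. A cytosine followed by 4 pyrimidines began 1.66%, 2.34% and 2.17%. These letters were therefore about as frequent at member starts as over all genes, apart from TATAAA, which was less frequent in members and in the wild-type group than over all. Only the first 50 bases were searched, which end before the midpoint of most peaks, so nothing follows for the rest of the peak.

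Member promoters were rich in G and C, as were those of other genes with m6A peaks. The median GC content of the window from 250 bases before to 50 after the start was 60.0% (quartiles 54.7 and 65.3%), against 62.7% in the wild-type group and 56.3% over all protein-coding genes. The observed over expected CpG ratio had a median of 0.796, against 0.794 and 0.577. A listed start on the other strand lay within 1 kb upstream in 273 of the 1266 (21.6%, 19.3 to 23.9%), against 18.8% in the wild-type group and 12.2% of all. Without strand in the lists, a peak between such paired starts cannot be assigned to either transcript, and 108 of the 1561 midpoints (6.92%) lay in more than 1 gene span. On the X chromosome lay 57 members (3.65%, 2.78 to 4.71%), against 4.41% of protein-coding genes.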

How the data were processed

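The authors deposited 3 peak lists with chromosome, start and end alone, so the only values are positions in bp (no other unit); no score came with them. MACS2 2.1.2, HISAT2 2.2.0, STAR 2.7, SAMtools 1.9, Trim Galore 0.6.4 and bcl2fastq are named, with build mm10, per the submitters' processing notes. The sources used here do not state the peak threshold, any pooling of replicates, the m6A antibody or the fragmentation. Per the labels' protocols the YTHDC1 complex was captured through its Halo tag. A Halo-GFP control was not analysed here.

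Samples were grouped by title. Gene spans came from the RefSeq table of GRCm38.p6 (34614 protein-coding and lncRNA genes), and strand, starts and sequences from a RefSeq table of 300-base promoter windows, which matched 27025 genes (32851 starts). Midpoints, overlaps (at least 1 bp), distances and shares were computed in Python 3.11.15 with pandas 2.3.3, NumPy 2.4.6 and SciPy 1.17.1, checked against bedtools 2.31.1 and tested on simulated data. No test was run, because no list has replicates. No genome sequence was used, so peak sequences, exons and polyadenylation signals were not analysed here.

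The members, lists and tests were chosen with earlier results of these data known. Named genes were the 10 widest members of each side, up to 4 genes of each list by width, genes with 2 members, and Pou5f1, Sox2, Nanog, Klf4, Myc, Malat1, Neat1, Xist, Mettl3, Ythdc1 and Pcif1; genes with provisional names or without strand counted in the ranks but most are not printed. Alternatives changed the distance, the point measured, the separation from wild-type peaks, the width, the gene classes, the overlap and the motif.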

Additional observations from a re-analysis of the deposited data

How the results depend on the processing

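Of the alternatives tried for the main values, 26 left the value within its counting interval (for counts, within 1.5 times) and 10 moved it. With a limit of 100 bp there were 728 peaks, 19.2% overlapped a RIP peak, 45.7% lay in a gene with a wild-type peak and 104 list genes had a member, in place of 1561, 24.7%, 48.3% and 206; the RIP share then lay below the 22.0% of all knockout peaks, where at 200 bp it lay above. Only peaks wider than the median width left 412, of which 33.7% overlapped a RIP peak. The share at the start was 96.4% with a limit of 500 bp and 97.5% by the nearest edge, in place of 98.4%. Asking for at least 50% of the peak to be covered gave a RIP share of 20.5%. GGACT was found in 5.85% of starts, in place of 20.9% for GGAC. The cause of the moves was not tested, except that fewer peaks qualify under a smaller limit. Of the 17 gene lists, 12 counts moved by over 1.5 times within 100 bp and 2 within 500 bp (chromatin regulators with 9 genes in place of 2 and pluripotency factors with 6 in place of 3), and the order of the lists changed under both.

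No paired analysis was possible because the lists hold no value per replicate. Depth and peak heights are unknown, so a peak missing from a list is not shown to be absent from the cells. The lists were read as deposited, with 1 knockout precipitate whose label names the wild-type list.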
